A study of Homo sapiens with 17 samples.

Results

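Transcripts of 10 genes of the endoplasmic reticulum (ER) unfolded protein response were followed in BEAS-2B cells given acetaldehyde. The genes are HSPA5, HSP90B1, PDIA4, CALR, SDF2L1, HERPUD1, DNAJB9, XBP1, ATF4 and DDIT3. They were taken by symbol from a table of 16884 protein-coding genes, and all 10 were present and passed the filter on low counts in every comparison. BEAS-2B is a human bronchial epithelial cell line that was immortalised, is labelled as wild type, and was kept in BEGM, a serum-free bronchial epithelial medium. Cultures received medium with 0 mM acetaldehyde as control (6 libraries), 10 mM acetaldehyde (6 libraries) or 16 mM acetaldehyde (5 libraries), all for 24 h. Acetaldehyde is a reactive aldehyde formed from ethanol and present in tobacco smoke. The design asks how the transcriptome of these cells differs with the dose. One immortalised line stands for the bronchial epithelium here, and whether the libraries come from separate cultures is not given in the labels. The p-values therefore measure the spread between libraries, which may be technical.

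The ER folds secreted and membrane proteins, and unfolded protein there activates the sensors PERK, IRE1 and ATF6. IRE1 splices the XBP1 transcript into the form that encodes an active transcription factor, ATF6 is cut to release another, and PERK phosphorylates eIF2alpha, which slows protein synthesis while favouring translation of ATF4. These factors switch on ER chaperones, folding enzymes and degradation components, and ATF4 induces DDIT3, which encodes the pro-apoptotic factor CHOP. Secretory epithelia such as the airway lining rely on this pathway for their protein load. Values here are gene-level transcript amounts, so neither the splicing of XBP1 nor any protein was measured.

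The ER stress response element (ERSE) is the promoter element through which ATF6 and XBP1 act on many ER chaperone genes, and the stretches that hold it are shown so that each gene's change can be read beside what its promoter carries. RefSeq promoters (GRCh38.p14, 250 bases before to 50 after each start) were found for all 10 genes and searched on both strands. The ERSE was searched as CCAAT, 9 bases of any kind and CCACG. It was in the promoters of 4 of the 10 genes (HSPA5, HSP90B1, XBP1 and CALR) and of 0.0916% of 27305 genes. HSP90B1 held it at a pair of places. Each line gives the sequence 5′ to 3′ on the gene's own strand, with the element in capitals. In the second HSP90B1 stretch, in CALR and in SDF2L1 the capitals read as the reverse complement of the element.
HSPA5, chr9:125241371-125241429, minus strand: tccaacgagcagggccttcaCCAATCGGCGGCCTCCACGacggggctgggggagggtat
HSP90B1, chr12:103930196-103930254, plus strand: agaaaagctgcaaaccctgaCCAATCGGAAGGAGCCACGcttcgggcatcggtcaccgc
HSP90B1, chr12:103930301-103930359, plus strand: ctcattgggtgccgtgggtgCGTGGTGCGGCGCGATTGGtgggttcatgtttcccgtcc
XBP1, chr22:28800583-28800641, minus strand: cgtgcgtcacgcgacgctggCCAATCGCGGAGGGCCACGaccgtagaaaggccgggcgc
CALR, chr19:12938364-12938422, plus strand: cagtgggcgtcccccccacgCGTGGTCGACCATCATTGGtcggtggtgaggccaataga

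A shorter element, ERSE-II, was searched as ATTGG, 1 base of any kind and CCACG. It was in the promoters of HERPUD1 and SDF2L1, 2 of the 10 genes, and of 0.0696% of the 27305 genes.
HERPUD1, chr16:56932005-56932055, plus strand: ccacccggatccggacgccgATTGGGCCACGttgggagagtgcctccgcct
SDF2L1, chr22:21642094-21642144, plus strand: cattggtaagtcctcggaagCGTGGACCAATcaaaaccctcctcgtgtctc

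The ERSE without its last base, ending in CCAC, covers every ERSE match. It was in the promoters of 6 of the 10 genes and of 0.381% of the 27305 genes. It added DDIT3 and a further place in HERPUD1.
DDIT3, chr12:57520577-57520634, minus strand: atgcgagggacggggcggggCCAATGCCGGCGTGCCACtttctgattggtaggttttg
The core TGACGTGG, read by XBP1 in other promoters, was in the promoters of 0 of the 10 genes and of 0.927% of the 27305. ATF4, DNAJB9 and PDIA4 held none of the searched letters in this window.

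Estimated counts per library ran between 16618130 and 17181707 in control, between 16622786 and 18809242 in the 10 mM group and between 15952673 and 17245285 in the 16 mM group. One 10 mM library, number 1, lay far from all others. FPKM, the unit of level used here, scales counts for transcript length and library depth. The median FPKM of that library over all genes was 2.62, against 6.71 to 8.26 in the other 16 libraries. The median squared difference of its counts from those of another 10 mM library was 352.5 to 453.9 times that expected from sampling noise. The 10 mM results are therefore given with and without it. The other libraries of each group fell into sets lying close together, libraries 1 to 3 and 4 to 6 in control, 2 to 4 and 5 to 6 at 10 mM, and 1 to 3 and 4 to 5 at 16 mM. By the same measure of squared differences, pairs within such a set were at 1.441 to 5.533 times the sampling noise and pairs across sets at 9.051 to 23.86 times. The labels name no batch for these sets, which were seen in the data. Of 6 epithelial markers, KRT8, KRT18 and KRT7 were above 1 FPKM in every group, while KRT5, EPCAM and CDH1 were near 0, and 4 of 5 mesenchymal markers, VIM and THY1 among them, were also above 1 FPKM. The immune markers PTPRC and CD3E and all 3 endothelial markers were near 0. CD68 averaged 3.32 FPKM in control, 9.39 FPKM at 10 mM and 12.1 FPKM at 16 mM, and its part in the results was not tested.

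**Figure D1:**
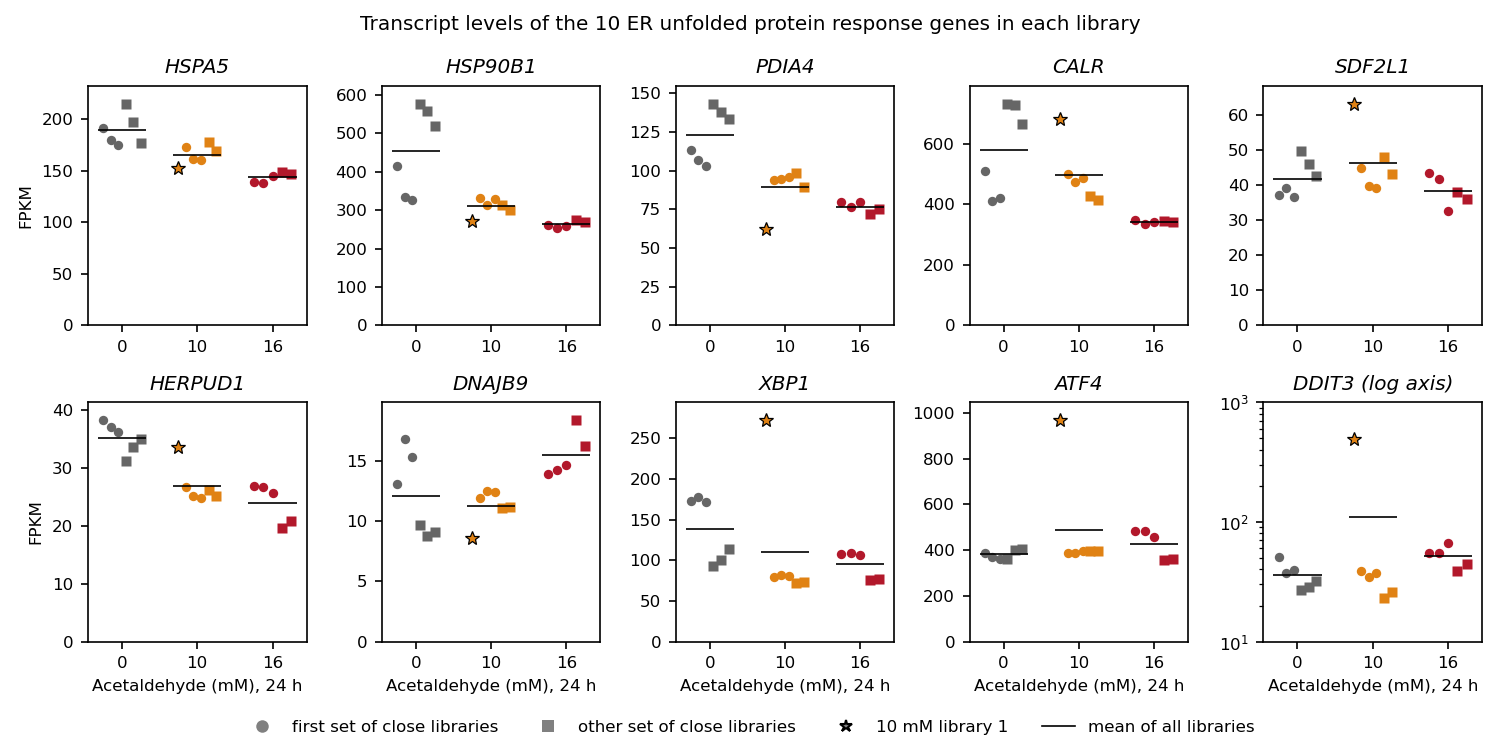
FPKM of each gene in every library by acetaldehyde dose (0, 10 and 16 mM, 24 h). Circles and squares are the sets of libraries lying close together, the star is 10 mM library 1, and lines are group means over all libraries. DDIT3 is on a log axis. CALR at 16 mM lies between 335.1 and 349.4 FPKM, under every control library, and 10 mM library 1 stands far above the other libraries for DDIT3, ATF4 and XBP1.

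The genes spanned a wide range of level per length. At 16 mM the order began with ATF4, at 428.4 ± 64.5 FPKM, above CALR at 342.2 ± 5.29 and HSP90B1 at 262.9 ± 8.74 FPKM (SD, n = 5 each), and DDIT3, at 52 ± 10.6 FPKM, stood above SDF2L1 at 38.27 ± 4.26 FPKM. In control CALR had the highest mean, at 577.5 ± 149 FPKM, and HSP90B1 averaged 454.7 ± 112 FPKM. ATF4 averaged 381.1 ± 19.3 FPKM and HSPA5 189.2 ± 15.4 FPKM. XBP1 averaged 138.4 ± 39.7 FPKM and PDIA4 123 ± 17.2 FPKM. HSP90B1 lay within 1 SD of CALR, ATF4 within 1 SD of HSP90B1 and PDIA4 within 1 SD of XBP1. SDF2L1, DDIT3 and HERPUD1 followed at 41.76 ± 5.24, 36.01 ± 8.9 and 35.16 ± 2.53 FPKM, and DNAJB9 was lowest at 12.11 ± 3.43 FPKM (SD, n = 6 each). SDF2L1, DDIT3 and HERPUD1 also lay within the spread of a neighbour.

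At 16 mM against control the chaperones and folding enzymes HSPA5, HSP90B1, CALR and PDIA4 were lower, with XBP1 and HERPUD1, while DDIT3 was higher. By edgeR (quasi-likelihood F test, p-values adjusted by Benjamini-Hochberg over 12410 genes), 6 of the 10 genes fell (HSPA5, HSP90B1, PDIA4, CALR, HERPUD1 and XBP1), 2 rose (DDIT3 and DNAJB9) and 2 did not pass (ATF4 and SDF2L1). The same test called 64.3% of all genes, 32.7% higher and 31.6% lower, so 8 of 10 called is to be read against that share. The median log2 change was -0.46 over the 10 genes and 0.00 over all genes tested. The libraries did not overlap for 5 of the 10 genes, against 46.6% of all genes. In bulk RNA, fewer cells expressing a gene and less RNA per cell cannot be told apart. With the counts of close libraries summed, a fit added after the data were seen, 2 of the 10 stayed past the threshold (HERPUD1, adjusted p = 0.0306, and PDIA4, adjusted p = 0.0449, edgeR), against 21.9% of all genes. With all 17 libraries in 1 fit, 3 stayed (HSP90B1, PDIA4 and CALR), against 35.3% of all genes.

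HSPA5 encodes BiP, the ER Hsp70 chaperone that also holds the stress sensors inactive (gene 3309, chr9:125234853-125241343, GRCh38.p13). Its level was 138.8, 138.5, 144.8, 148.4 and 147.1 FPKM in the 5 libraries at 16 mM, against a lowest of 175, a median of 185.8 and a highest of 215 FPKM in control. Every 16 mM library was under every control library. The log2 change was -0.38 ± 0.09 (SE; edgeR adjusted p = 0.00182), and it was -0.37 and -0.41 on FPKM within the first and the other set of close libraries.

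HSP90B1 encodes GRP94, the ER Hsp90 chaperone (gene 7184, chr12:103930107-103949694). It had 260.2, 252.5, 258.7, 275 and 268.1 FPKM at 16 mM, against a lowest of 326, a median of 466.6 and a highest of 576.4 FPKM in control. The groups did not overlap, but the controls themselves split, with libraries 1 to 3 under libraries 4 to 6. The log2 change was -0.78 ± 0.17 (edgeR adjusted p = 0.00167), and on FPKM it was -0.48 within the first set and -1.02 within the other.

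CALR encodes calreticulin, a calcium-binding lectin chaperone for glycoproteins (gene 811, chr19:12938578-12944489). Its 16 mM libraries had 349.4, 335.1, 340.8, 344.8 and 341 FPKM, against a lowest of 409.8, a median of 588.3 and a highest of 731.7 FPKM in control. The 16 mM values lay close together and all under the controls, which were again split by set. It fell by 0.75 ± 0.18 on the log2 scale (edgeR adjusted p = 0.00252), with -0.39 on FPKM within the first set and -1.05 within the other.

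PDIA4 encodes ERp72, a disulfide isomerase of the ER (gene 9601, chr7:149003051-149031634). It had 79.5, 76.6, 80, 72.2 and 75.2 FPKM at 16 mM, against a lowest of 103.2, a median of 123.2 and a highest of 143.3 FPKM in control. The groups did not overlap. It fell by 0.67 ± 0.11 on the log2 scale (edgeR adjusted p = 0.000156).

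HERPUD1 encodes Herp, a membrane protein that organises ER-associated degradation, the disposal of misfolded ER proteins (gene 9709, chr16:56932142-56960041). Its level was 26.9, 26.6, 25.6, 19.6 and 20.8 FPKM at 16 mM, against a lowest of 31.14, a median of 35.53 and a highest of 38.23 FPKM in control. No library of either group reached the other's range. It fell by 0.54 ± 0.07 on the log2 scale (edgeR adjusted p = 2.22e-05), the smallest adjusted p among the 10 genes in this comparison.

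XBP1 encodes the transcription factor activated by IRE1 (gene 7494, chr22:28793587-28800569). It had 107.3, 109.2, 106.2, 75.8 and 76.7 FPKM at 16 mM, against a lowest of 93.01, a median of 142.9 and a highest of 178.1 FPKM in control. The groups overlapped when pooled, since 16 mM libraries 1 to 3 lay above the lowest controls, but within each set of close libraries they did not. Its log2 change was -0.53 ± 0.16 (edgeR adjusted p = 0.0128), with -0.70 on FPKM within the first set and -0.43 within the other.

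SDF2L1 encodes an ER-resident partner of BiP and its co-chaperones (gene 23753, chr22:21642302-21644299). It ranged from 32.62 to 43.28 FPKM at 16 mM and from 36.41 to 49.65 FPKM in control. The ranges overlapped, and the log2 change of -0.12 ± 0.11 did not pass the test (edgeR adjusted p = 0.355).

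DNAJB9 encodes ERdj4, a BiP co-chaperone that also represses IRE1 (gene 4189, chr7:108569867-108574850). It had 13.9, 14.3, 14.7, 18.4 and 16.2 FPKM at 16 mM, against a lowest of 8.79, a median of 11.34 and a highest of 16.76 FPKM in control. Control libraries 2 and 3 lay inside the 16 mM range. The log2 change was 0.39 ± 0.16 (edgeR adjusted p = 0.0475), but on FPKM it was -0.07 within the first set, where the groups overlapped, and 0.91 within the other, where they did not. The rise therefore did not hold within the first set, and the call was lost in 8 of the 11 fits that left out 1 library (edgeR adjusted p = 0.0532 to 0.125).

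ATF4 encodes the transcription factor translated on PERK signalling (gene 468, chr22:39514494-39522686). It had 485.3, 483.7, 455, 358.1 and 359.8 FPKM at 16 mM, against a lowest of 360.8, a median of 379.4 and a highest of 403.9 FPKM in control. Libraries 1 to 3 at 16 mM were above all controls, and libraries 4 and 5 were under all of them. The log2 change of 0.17 ± 0.08 did not pass (edgeR adjusted p = 0.0715), and on FPKM it was 0.35 within the first set and -0.12 within the other. Without 16 mM library 4 or library 5 it passed, at 0.21 in both fits (edgeR adjusted p = 0.0362 and 0.036).

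DDIT3 encodes CHOP (gene 1649, chr12:57516588-57520517). It had 54.8, 55.2, 66.5, 39 and 44.4 FPKM at 16 mM, against a lowest of 27.21, a median of 34.8 and a highest of 51.34 FPKM in control. The pooled ranges overlapped, while within each set every 16 mM library was above every control. The log2 change was 0.51 ± 0.15 (edgeR adjusted p = 0.00838), with 0.46 on FPKM within the first set and 0.51 within the other.

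Set beside the promoters shown above, the 4 genes with an ERSE (HSPA5, HSP90B1, XBP1 and CALR) fell at 16 mM in the fit of single libraries, against 31.6% of all genes. With close libraries summed none of these 4 passed (edgeR adjusted p = 0.0877 to 0.25). Of the pair with an ERSE-II, HERPUD1 fell and SDF2L1 did not pass. Among the 3 genes with none of the searched letters, PDIA4 fell, DNAJB9 rose and ATF4 did not pass. Outside the 4 genes with an ERSE, the shortened ERSE lay in DDIT3, which rose, and in HERPUD1, which fell. This is a description of 10 genes.

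At 10 mM against control, the result turned on library 1. With all 6 libraries, edgeR called 0 of the 10 genes, against 12.4% of all genes, and 2 of the 10 had an unadjusted p under 0.05. The DESeq2 Wald test run here also called 0, where a gene left without an adjusted p counts as not called. The authors' deposited DESeq2 values, which include library 1, differ for DDIT3 (log2 change 2.42, DESeq2 q = 0.029), and the reason was not tested. Without library 1, edgeR called 4 of the 10, all lower, against 47.2% of all genes (23.1% higher and 24.1% lower), and the median log2 change was -0.26. In 10 mM libraries 2 to 6 HERPUD1 had 26.7, 25, 24.8, 26.1 and 25.1 FPKM and PDIA4 had 94.3, 94.9, 95.7, 98.6 and 89.6 FPKM, all under the lowest controls at 31.14 and 103.2 FPKM. HSP90B1 had 330.3, 314.1, 329.3, 312.2 and 300.3 FPKM there, which overlapped the controls from 326 FPKM upward. HERPUD1 fell by 0.46 ± 0.05 on the log2 scale (edgeR adjusted p = 1.51e-05) and XBP1 by 0.82 ± 0.15 (adjusted p = 0.000692). PDIA4 fell by 0.39 ± 0.11 (adjusted p = 0.0124) and HSP90B1 by 0.53 ± 0.17 (adjusted p = 0.0212). On FPKM within the first and the other set, HSP90B1 was at -0.14, where libraries overlapped, and -0.85, and PDIA4 at -0.18 and -0.555. HERPUD1 was at -0.54 and -0.38 there, and XBP1 at -1.11 and -0.49. With close libraries summed and library 1 left out, edgeR called 0 of the 10 genes, against 3.07% of all genes, with 2 of the 10 at an unadjusted p under 0.05, and the adjusted p was 0.0912 for HERPUD1, 0.0767 for XBP1, 0.309 for PDIA4 and 0.314 for HSP90B1.

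The remaining 6 genes did not pass at 10 mM without library 1. HSPA5 changed by -0.17 ± 0.09 on the log2 scale and CALR by -0.35 ± 0.18. CALR differed between the sets, at 0.12 on FPKM within the first and -0.75 within the other. DDIT3 was at -0.13 ± 0.15, ATF4 at 0.04 ± 0.06, DNAJB9 at -0.03 ± 0.14 and SDF2L1 at 0.04 ± 0.11. XBP1 in 10 mM libraries 2 to 6 had 79.2, 82.1, 81, 72.5 and 73.7 FPKM, all under the lowest control at 93.01 FPKM. The libraries did not overlap for 3 of the 10 genes (XBP1, HERPUD1 and PDIA4), against 29.4% of all genes.

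**Figure D2:**
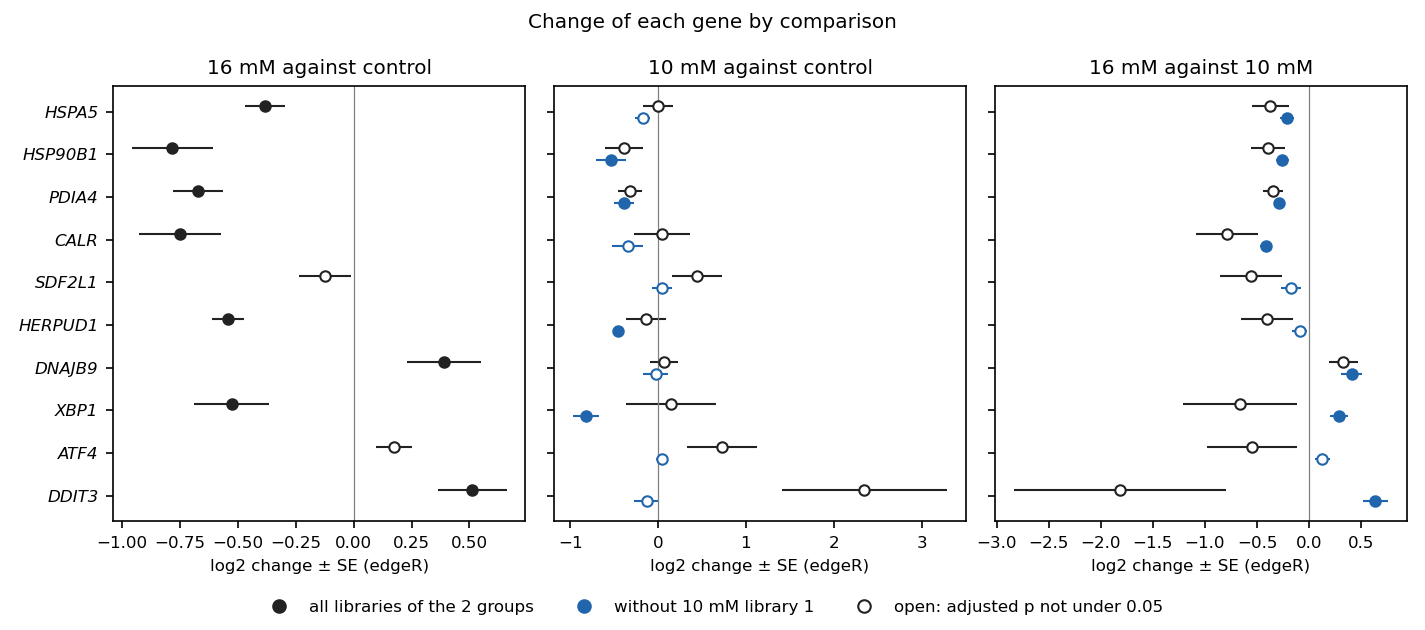
Log2 change ± SE (edgeR) of each gene in the 3 comparisons; black uses all libraries of both groups, blue leaves out 10 mM library 1, and open circles did not pass an adjusted p of 0.05. At 16 mM against 10 mM DDIT3 is at 0.64 ± 0.12 without that library and at -1.82 ± 1.02 with it.

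Between the doses, DDIT3, XBP1 and DNAJB9 rose and HSPA5, HSP90B1, CALR and PDIA4 fell once library 1 was left out. With it, edgeR called 0 of the 10 genes at 16 mM against 10 mM (4.61% of all genes), with 4 at an unadjusted p under 0.05, and the DESeq2 Wald test called 1. Without it, 7 of the 10 were called, against 44.8% of all genes (23.0% higher and 21.8% lower). DDIT3 was lowest at 39.04 FPKM among the 16 mM libraries, against 38.97, 34.7, 37.5, 23.1 and 25.9 FPKM in 10 mM libraries 2 to 6, so the pooled groups were hardly separated. CALR was highest at 349.4 FPKM at 16 mM, against 498.8, 473, 486.3, 425.8 and 413.5 FPKM in those 10 mM libraries, and the groups lay far apart. DDIT3 rose by 0.64 ± 0.12 on the log2 scale (edgeR adjusted p = 0.00208), DNAJB9 by 0.41 ± 0.10 (adjusted p = 0.00652) and XBP1 by 0.29 ± 0.09 (adjusted p = 0.0177). On FPKM within the first and the other set, DDIT3 was at 0.67 and 0.77, DNAJB9 at 0.22 and 0.64 and XBP1 at 0.41 and 0.06, without overlap in either set. CALR fell by 0.41 ± 0.06 (adjusted p = 0.000376), PDIA4 by 0.29 ± 0.04 (adjusted p = 0.00054), HSP90B1 by 0.26 ± 0.06 (adjusted p = 0.00575) and HSPA5 by 0.21 ± 0.07 (adjusted p = 0.0225). With close libraries summed and library 1 left out, edgeR called 0 of the 10 genes and 0.0% of all genes, with 2 of the 10 at an unadjusted p under 0.05. DDIT3 (0.64), DNAJB9 (0.46), PDIA4 (-0.29) and CALR (-0.38) then had edgeR adjusted p-values of 0.212 to 0.27. For XBP1 (0.26), HSP90B1 (-0.23) and HSPA5 (-0.21) they were 0.369, 0.477 and 0.515. With all groups in 1 fit without library 1, 3 of the 10 passed and XBP1 did not (edgeR adjusted p = 0.111). The libraries of both doses did not overlap for 6 of the 10 genes, against 31.2% of all genes. The comparisons with control share the same 6 control libraries, so their values are given side by side only.

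In FPKM, library 1 at 10 mM had the highest DDIT3, ATF4 and XBP1 levels of all 17 libraries, at 496.4, 969.4 and 272.8 FPKM. Its FPKM values summed to 977403 over all genes, against 506795 to 554077 in the other libraries. Against the mean of the other 10 mM libraries DDIT3 was 15.5 times as high in FPKM, 8.33 times in TPM, which fixes the sum over genes, and 27.2 times in counts scaled by TMM, which aligns the typical gene between libraries. XBP1 was 3.51, 1.9 and 6.44 times as high on these scales, and ATF4 2.47, 1.34 and 4.43 times. In TPM the XBP1 level of library 1, 279.1, was under those of control libraries 1 to 3, at 328.1, 346.3 and 337.5. The other 7 genes were above the other 10 mM libraries on the TMM scale and below them in TPM, so that no direction can be given for them. HSPA5, for example, was at 1.65 times on the TMM scale and 0.491 times in TPM. The labels set this library in the 10 mM group, and what sets it apart was not tested.

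**Figure D3:**
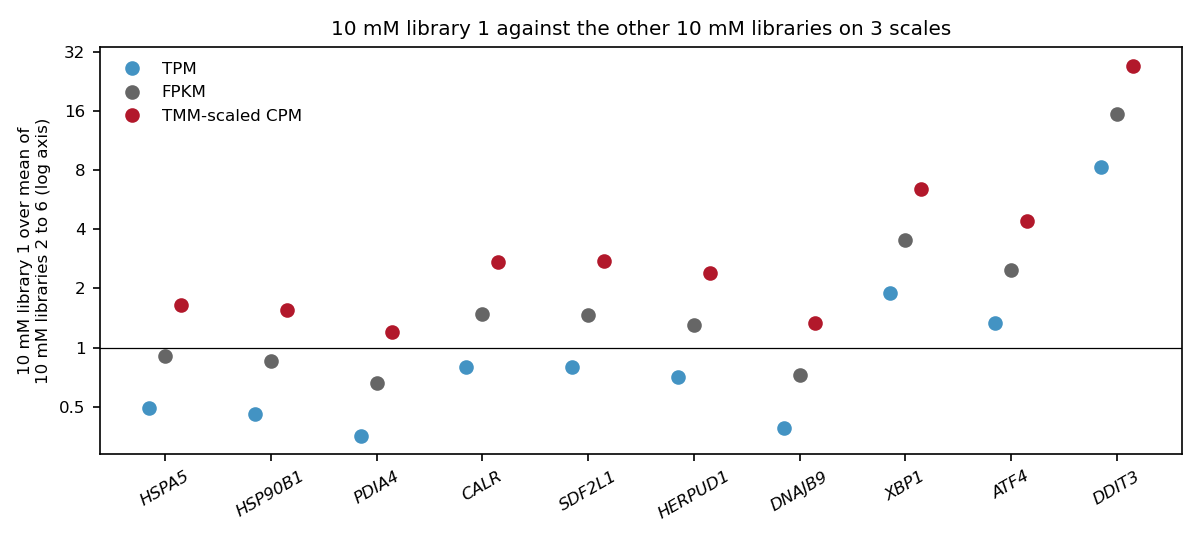
Level of each gene in 10 mM library 1 over the mean of 10 mM libraries 2 to 6, on 3 scales (log axis; 1 means no difference). DDIT3, ATF4 and XBP1 are above 1 on every scale, and the other 7 genes change side with the scale.

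A ratio of transcripts within a library does not depend on scaling between libraries, and set the ER chaperones against their cytosolic relatives. HSPA5 over HSPA8 (the constitutive cytosolic Hsp70) averaged -2.71 ± 0.18 on the log2 scale at 16 mM and 0.11 ± 1.03 in control (SD, n = 5 and 6), a difference of -2.82. The exact two-sided permutation test gave p = 0.00216, the smallest it allows here, and an adjusted p of 0.00487 over 9 tests. HSP90B1 over HSP90AB1 (a cytosolic Hsp90) averaged -1.58 ± 0.18 at 16 mM and 0.14 ± 0.18 in control, a difference of -1.72 with the same p and adjusted p. No 16 mM library reached the control range in either ratio. The permutation shuffled single libraries and took no account of the close sets, so the p-values of all ratio tests may be too small. In HSPA5 over HSPA8 the controls were split by set, from 0.82 to 1.20 in libraries 1 to 3 and from -0.94 to -0.62 in libraries 4 to 6. By edgeR, HSPA8 changed by 2.10 ± 0.45 and HSPA5 by -0.38 ± 0.09 on the log2 scale, so most of the difference in that ratio lies in HSPA8. HSP90AB1 changed by 0.90 ± 0.25 and HSP90B1 by -0.78 ± 0.17.

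At 10 mM the same ratios averaged -2.43 ± 0.92 and -1.26 ± 0.45 with all 6 libraries, a difference from control of -2.54 and -1.40 (exact permutation test, adjusted p = 0.00487 for both), and of -2.19 and -1.25 without library 1 (adjusted p = 0.0119 and 0.00649). Between 16 and 10 mM the ratios differed by -0.63 and -0.47 without library 1 (exact permutation test, adjusted p = 0.0119 and 0.0204), while with it neither passed. DDIT3 over ATF4, CHOP against the factor upstream of it, averaged -3.05 ± 0.17 at 16 mM and -3.44 ± 0.35 in control, a difference of 0.38 that did not pass (exact permutation p = 0.0649, adjusted p = 0.117). Against 10 mM without library 1 that ratio was higher by 0.59 (exact permutation adjusted p = 0.0119), while with library 1 the difference was 0.14 and did not pass (adjusted p = 0.881).

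**Figure D4:**
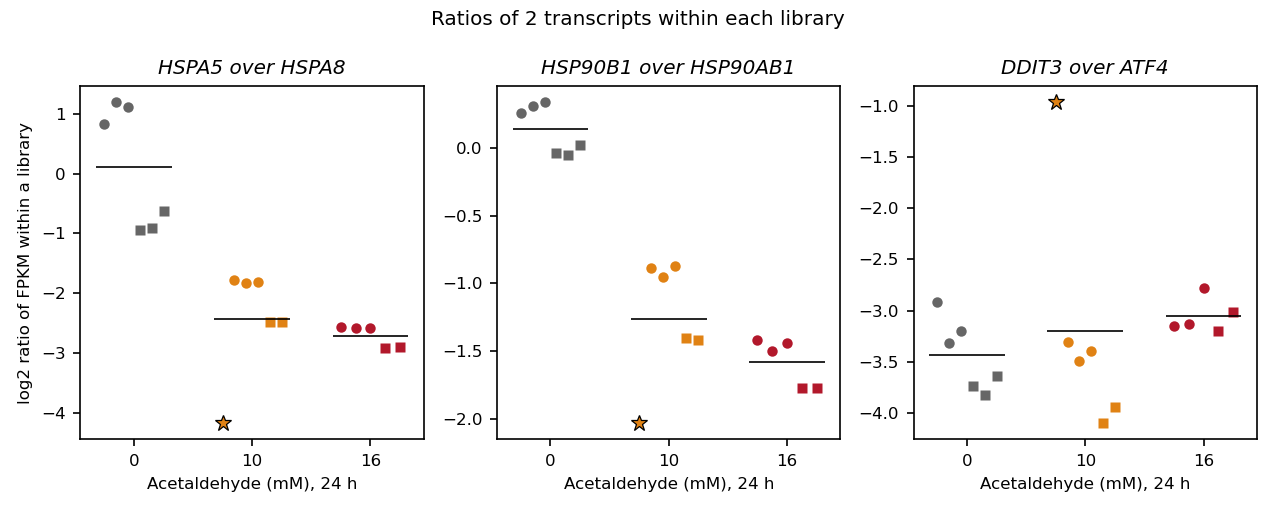
Log2 ratio of FPKM of 2 transcripts within each library by acetaldehyde dose; symbols as in the plot of levels, lines are group means. HSPA5 over HSPA8 lies between -2.91 and -2.57 at 16 mM and between -0.94 and 1.20 in control.

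Other genes of the pathway were taken as lists, with changes given as log2 ± SE, each read against the 64.3% of all genes called at 16 mM against control. Among 7 cytosolic counterparts, heat shock proteins outside the ER, 7 rose, with a median log2 change of 2.10. HSPA6, a strictly inducible Hsp70, rose by 5.89 ± 0.37 (edgeR adjusted p = 8.19e-08), HSPA1A by 4.01 ± 0.39 (adjusted p = 2.22e-06), HSPA1B by 3.49 ± 0.33 (adjusted p = 2.13e-06) and HSPA8 by 2.10 ± 0.45 (adjusted p = 0.00129). HSPA1A and HSPA1B are near-identical copies, so the split of reads between them is uncertain.

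Of 21 other ER chaperones and folding enzymes, 5 rose, 10 fell and 6 did not pass, with a median log2 change of -0.17. SIL1, the nucleotide exchange factor of BiP, fell by 0.81 ± 0.07, and FKBP2, an ER prolyl isomerase, by 0.58 ± 0.10. The disulfide oxidases ERO1B and ERO1A rose by 0.77 ± 0.08 and 0.57 ± 0.08. Of 9 stress sensors and their processing factors, 2 rose, 5 fell and 2 did not pass (median -0.27). ATF6B, a relative of ATF6, fell by 1.34 ± 0.09, MBTPS2, the protease that completes ATF6 cleavage, by 0.61 ± 0.15 and ATF6 by 0.52 ± 0.07, while EIF2S1, which encodes eIF2alpha, rose by 0.60 ± 0.08.

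ER-associated degradation went the other way. Of 19 tested genes of 20 in that list, 14 rose, 4 fell and 1 did not pass, with a median log2 change of 0.34. VCP, the ATPase that pulls proteins out of the ER, rose by 0.78 ± 0.23 and its cofactor NPLOC4 by 0.65 ± 0.06, whereas EDEM2, a glycoprotein-directing mannosidase family member, fell by 0.54 ± 0.07. Of 21 genes of translocation into and export from the ER, 10 rose, 2 fell and 9 did not pass (median 0.19). SRPRB, a subunit of the signal recognition particle receptor, rose by 0.64 ± 0.08, the COPII coat component SEC24D by 0.61 ± 0.09 and the signal peptidase subunit SPCS3 by 0.58 ± 0.13, while the translocon partner SEC63 fell by 0.48 ± 0.10.

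Outputs of the PERK arm were split. Of 13 genes, 4 rose, 7 fell and 2 did not pass (median -0.28). ATF3, a stress-induced transcription factor, rose by 1.58 ± 0.19 (edgeR adjusted p = 1.29e-05). CHAC1, which degrades glutathione and is an ATF4 and CHOP target, fell by 1.16 ± 0.27 (adjusted p = 0.00226), DDIT4, an inhibitor of mTORC1, by 1.17 ± 0.36 (adjusted p = 0.0123) and NUPR1, a stress-response chromatin protein, by 1.21 ± 0.33 (adjusted p = 0.00606). At 10 mM against control with all libraries, 2 of these 13 rose, 0 fell and 11 did not pass, and 6 of the 7 cytosolic counterparts rose, against 12.4% of all genes called. Without library 1, 4 of the 13 rose and 6 fell, and 7 of 7 cytosolic counterparts rose, against 23.1% of all genes higher and 24.1% lower.

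**Figure D5:**
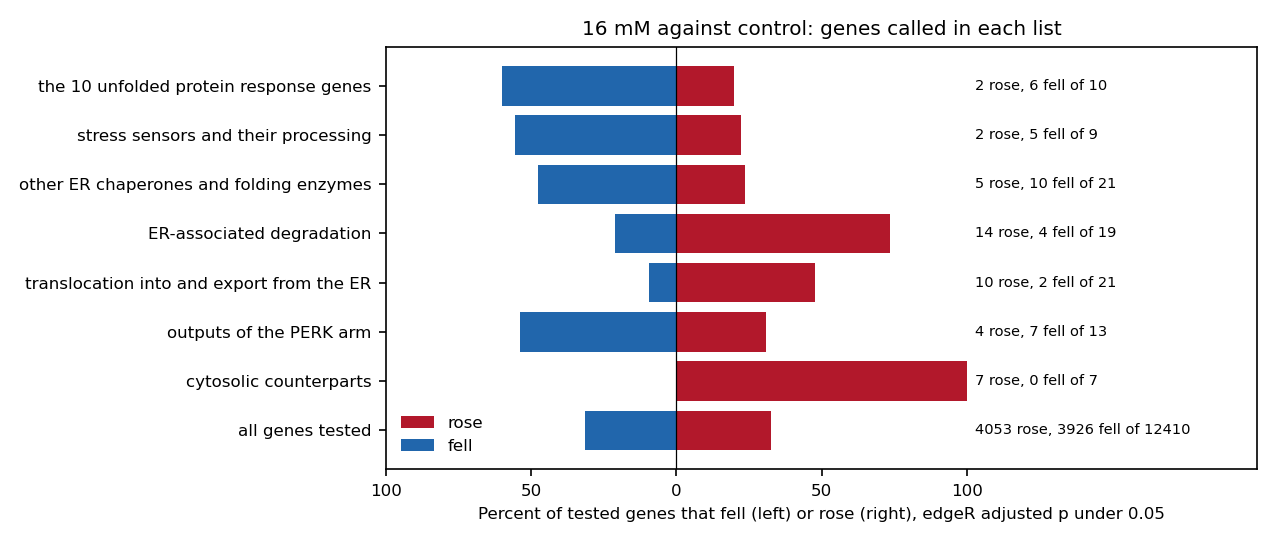
Percent of tested genes in each list that fell (left, blue) or rose (right, red) at 16 mM against control, by edgeR at an adjusted p under 0.05; the bottom bar is all 12410 genes tested. ER-associated degradation has 14 genes that rose of 19, and the 10 unfolded protein response genes have 6 that fell.

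The genes moved to different degrees together across the 16 libraries without 10 mM library 1, which share cell line, processing and the close sets. Pearson's r of log2(FPKM + 1) was 0.969 between HSP90B1 and CALR, 0.962 between HSP90B1 and PDIA4 and 0.911 between HSPA5 and PDIA4. HSPA5 with XBP1 had an r of 0.24, and HSP90B1 with DNAJB9 had -0.76. Outside the 10 genes, the profiles most like HSPA5 over these 16 libraries were those of ITGA3 (r = 0.944), FOCAD (0.941), MVP (0.94), ERGIC1 (0.939) and AHCY (0.934), and over all 17 those of ERGIC1 (0.939), SND1 (0.927), HIBCH (0.915), ARL6IP5 (0.914) and FOCAD (0.912). For DDIT3 they were UBR7 (0.932), MCM10 (0.919), RSRC2 (0.919), EREG (0.915) and ZNF273 (0.912) over 16 libraries. Over all 17, where library 1 sets the range, they were CNBP (0.963), MRPL2 (0.96), NGRN (0.959), FN3KRP (0.954) and ELOF1 (0.951).

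In the authors' deposited table, made with DESeq2, the log2 change at 16 mM against control had a q under 0.05 for the same 8 genes. For 10 mM against control the authors' deposited table gives DDIT3 a log2 change of 2.42 (q = 0.029), a value that includes library 1. For 16 mM against 10 mM the authors' deposited table gives PDIA4 a log2 change of -0.36 (q = 0.00552).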

How the data were processed

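Poly-A RNA of 17 BEAS-2B libraries was read from 1 deposited table of 16884 protein-coding genes; groups and replicate numbers came from the sample titles. Per the submitters' processing notes, HISAT, Bowtie2 2.3.4.3, RSEM 1.3.1, DESeq2 1.4.5 and build GRCh38.p13 were used, with roles not given in the sources used here. Per the file headers the deposited table holds read counts, FPKM and TPM; no normalization is stated for the read counts. These deposited values were treated as estimated counts per gene, since 13.1% are not whole, and were rounded here. Deposited log2 ratios of the authors, with their p-values and q-values, were used only where the authors' table is named.

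Changes are log2 estimates from edgeR 4.0.16 (R 4.3.3; TMM, filterByExpr, quasi-likelihood test on the 2 groups compared, Benjamini-Hochberg over all genes tested, called at an adjusted p under 0.05). The SE is the size of the log2 change over the square root of F. Ratios of FPKM were compared by exact two-sided permutation over libraries. The code was tested on simulated data. Alternatives were DESeq2 1.42.0, limma 3.58.1 on log2(FPKM + 1) or log2(FPKM + 0.1), other scalings and filters, 1 fit of all libraries, a replicate block and each library left out. Added after the data were seen were log2(TPM + 1), close libraries summed and a term for the close sets. Same-numbered libraries deviated together in some pairs but not in all, so they were not treated as pairs. Per list, up to 4 called genes with the largest change at 16 mM are named (1 such gene is not reported here), and for HSPA5 and DDIT3 the 5 most correlated genes with a mean of at least 5 FPKM. The 10 genes and all lists were chosen with earlier results of these data known. Whether reads kept their strand was not stated, and overlapping or antisense genes may therefore share reads.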

Additional observations from a re-analysis of the deposited data

Results flagged for a closer look

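Of 30 groups of values (10 genes in 3 groups), 8 held a library far from the others by Dixon's criterion, which flags about 1 in 20 by chance, and all 8 were 10 mM library 1. Its DDIT3 level was 496 FPKM, its ATF4 level 969 FPKM and its XBP1 level 273 FPKM, each above every other library in FPKM. In TPM its XBP1 level was under those of control libraries 1 to 3. In FPKM, CALR stood at 681, SDF2L1 at 63.1 and HERPUD1 at 33.5, above the other 10 mM libraries. PDIA4 stood at 62.5 FPKM and DNAJB9 at 8.57 FPKM, below them. CALR, SDF2L1 and HERPUD1 were below the mean of the other 10 mM libraries in TPM, and PDIA4 and DNAJB9 above it on the TMM scale, so no direction is given for them. These 8 flags come from 1 library and are not independent.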

How the results depend on the processing

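At 16 mM against control no change of the 10 genes or of the other named genes altered its direction in any refit; within the first close set alone DNAJB9 was -0.07 on FPKM and SDF2L1 0.06, and within the other ATF4 was -0.12. The count of called genes among the 10 was 3 with all 17 libraries in 1 fit (HSP90B1, PDIA4 and CALR; 4439 of all genes) and 2 with close libraries summed (2916 of all genes), against 8; both settings change what spread the test uses. Leaving out each library in turn gave 7 to 8: DNAJB9 was lost in 8 of 11 such fits, and ATF4 was gained without 16 mM library 4 or 5. DNAJB9 also missed the threshold under the block, DESeq2 size factors, no composition scaling and limma on FPKM or TPM (adjusted p = 0.0511 to 0.146), and XBP1 with limma on TPM and on FPKM without a filter (adjusted p = 0.0567 and 0.0569). ATF4 passed with all groups in 1 fit without 10 mM library 1 (adjusted p = 0.036). Of the other named genes, EIF2S1, FKBP2, SRPRB and CHAC1 missed it with all 17 libraries in 1 fit, MBTPS2, FKBP2, VCP, SPCS3, SEC63 and DDIT4 with close libraries summed, and DDIT4 under the block. At 10 mM against control, where 0 were called, leaving out 1 library gave 0 to 4 of the 10 and 1001 to 5873 of all genes. Between 16 and 10 mM it gave 0 to 7 and 60 to 5512. In both comparisons the highest count is the one without 10 mM library 1. At 10 mM against control, 1011 were called without control library 1 and 1001 without control library 2. At 16 mM against 10 mM, every other library left out lowered the count by over 1.5 times, to 318, 180, 240, 80 and 60 of all genes without 16 mM libraries 1 to 5 and to 136, 121, 180, 224 and 306 without 10 mM libraries 2 to 6. Over all genes, 1530 were called at 10 mM against control and 569 at 16 mM against 10 mM.

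Other settings moved the counts at 10 mM against control as follows, and the cause was not tested. Of the 10 genes, 4 were called with all groups in 1 fit without library 1 (5670 of all genes), 5 with a term for the close sets (7487), 2 without composition scaling, 2 with limma on FPKM under each pseudocount and filter, and 1 with limma on TPM (611). Over all genes the counts were 2351 with all 17 libraries in 1 fit, 2564 with the DESeq2 Wald test and 408 with close libraries summed, where 0 of the 10 were called. At 16 mM against 10 mM, 3 of the 10 were called with all groups in 1 fit without library 1 (5537 of all genes), 7 with the set term (8046) and 1 with the DESeq2 Wald test (1720). Over all genes the counts there were 1777 with all 17 libraries, 281 without composition scaling, 327 without a filter, 324 and 306 with limma on log2(FPKM + 1) and log2(FPKM + 0.1), 96 on TPM and 0 with close libraries summed (edgeR; 2454 at an unadjusted p under 0.05; the DESeq2 Wald test on single libraries called 1720).

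Scaling moved the median log2 change of all genes at 10 mM against control to -0.11 with limma on log2(FPKM + 1), to -0.14 on log2(FPKM + 0.1) and to -0.26 on TPM, from 0.06. Between 16 and 10 mM it moved to 0.11, 0.14 and 0.26, from -0.06. The share of calls that were higher was 45.5% at 10 mM against control and 44.6% at 16 mM against 10 mM; it was 25% and 79.2% on TPM, 35.1% and 60.2% on log2(FPKM + 1), and 61.2% without composition scaling at 16 mM against 10 mM.

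None of the 10 genes had passed in the main edgeR fits (TMM, the 2 groups compared, all 10 mM libraries). Some passed under the other settings given above, and several changed direction. At 10 mM against control, XBP1 turned to -0.82 and CALR to -0.34, DDIT3 to -0.13 and DNAJB9 to -0.024 with all groups in 1 fit without library 1. With close libraries summed they were -0.82, -0.36, -0.16 and -0.027, and with the set term -0.83, -0.25, -0.17 and -0.038. Without composition scaling XBP1 was -0.32, CALR -0.21 and DNAJB9 -0.10. With limma XBP1 was -0.47 or -0.48 on FPKM and -0.64 on TPM, CALR -0.20 and -0.35, DNAJB9 -0.064 or -0.066 and -0.21, and SDF2L1 -0.02 on TPM. HSPA5 was 0.018 with DESeq2 size factors and 0.014 with the Wald test. Leaving out 1 library gave HSPA5 -0.17 to 0.051, DDIT3 -0.13 to 2.58, XBP1 -0.82 to 0.29, DNAJB9 -0.026 to 0.16 and CALR -0.35 to 0.14.

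Between 16 and 10 mM, DDIT3, ATF4 and XBP1 turned to 0.65, 0.13 and 0.30 with all groups in 1 fit without library 1. They were 0.64, 0.093 and 0.26 with close libraries summed, 0.64, 0.12 and 0.28 with the set term, and 0.20, 0.065 and 0.14 on TPM. DDIT3 was 0.03 on log2(FPKM + 1) and 0.04 on log2(FPKM + 0.1). Leaving out 1 library gave DDIT3 -2.05 to 0.64, ATF4 -0.66 to 0.13 and XBP1 -0.80 to 0.29.

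With replicate number as a block, 738 genes were called at 10 mM against control and 0 at 16 mM against 10 mM (edgeR; 2093 at an unadjusted p under 0.05; the unblocked DESeq2 Wald test called 1720). XBP1 and CALR were then -0.36 and -0.048 at 10 mM against control. With the block and without 10 mM library 1, 4 of the 10 and 5352 of all genes were called at 10 mM against control, and 6 and 6067 at 16 mM against 10 mM. XBP1, CALR and DDIT3 were -0.72, -0.33 and -0.011 in the first, and DDIT3, ATF4 and XBP1 0.59, 0.10 and 0.23 in the second. The numbers were not taken to pair the libraries, since correlations of same-numbered deviations were mixed, from -0.0501 to 0.302 at 16 mM against control (4 of 5 over 0.1), from -0.243 to 0.33 at 10 mM against control (5 of 6) and from -0.444 to 0.462 at 16 mM against 10 mM (2 of 5), and 2 of 5, 2 of 6 and 0 of 5 libraries correlated best with their own number. The block without library 1 adds nothing at 16 mM against control, where that library is not used. Under the block the ratio HSPA5 over HSPA8 was -2.96 at 16 mM and -2.54 at 10 mM against control, and HSP90B1 over HSP90AB1 -1.74 and -1.40. These differences each had an adjusted p of 0.141 (exact sign flips over 5 or 6 pairs). With so few pairs the adjusted p of this test cannot fall under 0.05, so it decides nothing about these ratios. Under the block DDIT3 over ATF4 was -0.004 at 16 mM against 10 mM. Within the first close set HSP90B1 over HSP90AB1 was -1.21 at 10 mM against control, and DDIT3 over ATF4 was -0.25 in the first and -0.28 in the other. Leaving out 1 library, DDIT3 over ATF4 ranged from 0.31 to 0.49 at 16 mM against control, from -0.21 to 0.42 at 10 mM against control and from -0.036 to 0.59 at 16 mM against 10 mM, where HSPA5 over HSPA8 ranged from -0.63 to -0.15 and HSP90B1 over HSP90AB1 from -0.47 to -0.24.

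Depth was alike between libraries and all 10 genes passed the filter on low counts. The p-values rest on 5 or 6 libraries a group that lie in 2 close sets.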
